A study of Mus musculus with 2 samples.

Results

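Src family and Tec family kinases were followed in 2 RNA libraries, 1 from embryonic fibroblasts and the other from macrophages grown out of bone marrow. The set was the 9 genes Src, Fyn, Yes1, Lyn, Fgr, Lck, Blk, Btk and Tec, chosen by name; each stood on 1 row of the table, out of 34295 genes in all. Both cultures were wild type C57BL/6J. The fibroblasts were grown from E13.5 to E14.4 embryos without head and blood-rich tissue, were depleted by sorting of cells with the surface products of Ptprc, Itgam or Adgre1, and were used at passage 4 to 7, with 100000 cells in DMEM with 10% serum. The macrophages were cultured from whole marrow for 6 days in RPMI with 10% serum and 30% L929-conditioned medium, which supplies the macrophage growth factor CSF1, and 750000 cells were plated. No animal or embryo numbers are given in the sources used here, and cell type cannot be told apart from medium, cell number or preparation. The value of a gene is its TPM, its transcripts per 1000000 transcripts of the library. TPM are corrected for transcript length, so that levels of different genes can be compared within a library. They keep no read depth, and with 1 library per cell type there is no replicate check, error or p-value for any difference below.

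Src family kinases are cytoplasmic tyrosine kinases held at the inner face of the plasma membrane by lipid groups on their N-terminal end. Each carries a protein-binding SH3 domain, a phosphotyrosine-binding SH2 domain and a kinase domain, and is shut when a tyrosine in its tail, phosphorylated by the kinase CSK, folds back onto the SH2 domain. SRC, FYN and YES are made in most tissues and act below growth factor receptors and integrins. LYN, FGR, LCK and BLK belong mainly to blood cells, where they phosphorylate the tyrosine motifs (ITAMs) of immune receptors and their adaptors. Tec family kinases such as BTK and TEC lack that tail tyrosine, mostly bind membrane phosphoinositides through a PH domain, and are switched on by Src family kinases and by SYK on the way to phospholipase C gamma.

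The 2 libraries differed in which members of these families were high. Src and Yes1 were higher in fibroblasts, Lyn, Btk and Tec were higher in macrophages, Fyn was close to equal, and Fgr, Lck and Blk stayed below 5 TPM in both. Here "higher" means that the TPM plus 1 of a gene exceeded that in the other library by 4-fold or more (a log2 ratio of 2 or more in size) and that the gene reached 5 TPM in the higher library. By that rule 2 of the 9 genes were higher in fibroblasts and 3 in macrophages. A gene that reaches 5 TPM in 1 library alone cannot be called higher in the other. Over all 11191 genes with 5 TPM in at least 1 library, 14.3% were higher in fibroblasts and 8.77% in macrophages. The 6 kinases at that level were thus divided 2, 3 and 1 between fibroblasts, macrophages and neither, a small number of genes to set beside those shares. Over the 8 kinases at 1 TPM or more in either library the median log2 ratio of fibroblast over macrophage was -1.56, beside 0.28 over the 13606 genes at that level. That median lies between Fgr at -1.97 and Lck at -1.15, both under 5 TPM in both libraries. With 5 added to the TPM in place of 1 their ratios were -0.68 and -0.38, and with 0.1 added -4.50 and -2.35.

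**Figure D1:**
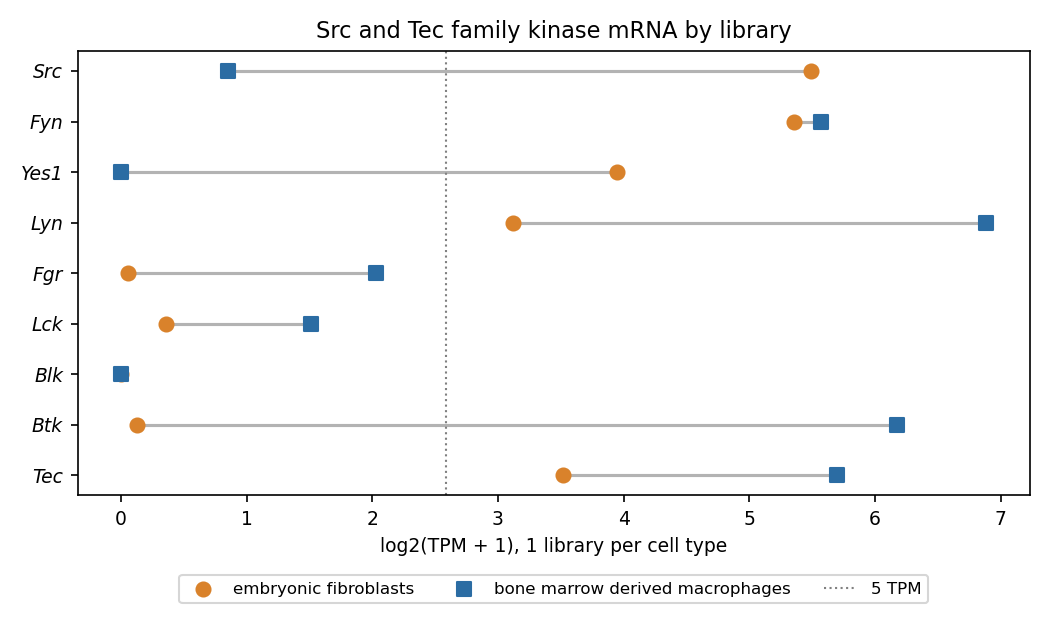
Level of each kinase as log2(TPM + 1) in the fibroblast library (circles) and the macrophage library (squares), joined by a line; the dotted line marks 5 TPM. Src and Yes1 lie to the right in fibroblasts, Lyn, Btk and Tec in macrophages, the Fyn symbols nearly touch, and both Blk symbols lie at 0.

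Stretches of regulatory DNA from 3 genes are shown because their windows overlap no annotated exon of the same gene and their values differed between the libraries: Btk was higher in macrophages, Yes1 was higher in fibroblasts, and Fgr, at a low level, had the larger value in macrophages without passing the limits given above. Each is the 250 bases before the RefSeq start site on GRCm38.p6, read 5' to 3' on the strand of the gene. RefSeq windows were matched for 7 of the 9 genes, and none was matched for Lyn or Blk. Those of Src, Fyn and Tec overlap annotated exons of the same gene and are not printed. Of the 2 windows of Lck, 1 overlaps an exon of Lck. The other overlaps none and was left out, although it could have been shown like that of Fgr. Both Lck and Fgr were below 5 TPM in both libraries. Capitals mark every match, on either strand, to GGGCGG (the GC box bound by SP1-type factors), GAGGAA or GGAAGT (cores found in sites of ETS factors such as the macrophage factor PU.1). The last 2 patterns share the letters GGAA and can overlap.
Btk, chrX:134583141-134583390, minus strand: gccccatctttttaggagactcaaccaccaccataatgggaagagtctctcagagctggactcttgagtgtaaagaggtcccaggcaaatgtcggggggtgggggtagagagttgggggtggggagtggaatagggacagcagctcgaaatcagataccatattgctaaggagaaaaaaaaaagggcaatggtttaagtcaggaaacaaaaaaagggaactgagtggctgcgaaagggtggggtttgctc
Fgr, chr4:132973845-132974094, plus strand: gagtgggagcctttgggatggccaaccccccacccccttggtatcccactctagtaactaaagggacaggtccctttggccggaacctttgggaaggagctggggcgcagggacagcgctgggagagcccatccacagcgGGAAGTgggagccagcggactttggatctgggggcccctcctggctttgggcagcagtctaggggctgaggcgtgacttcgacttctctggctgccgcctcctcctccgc
Yes1, chr5:32610921-32611170, plus strand: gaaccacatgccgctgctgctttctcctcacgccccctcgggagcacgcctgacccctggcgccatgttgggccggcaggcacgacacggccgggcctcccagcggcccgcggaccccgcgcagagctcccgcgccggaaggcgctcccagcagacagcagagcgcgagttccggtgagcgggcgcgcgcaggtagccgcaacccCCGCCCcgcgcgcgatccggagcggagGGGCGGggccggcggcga

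Of the 3 windows, those of Btk and Yes1 differed most in base content. The Yes1 window was 77.2% G and C with 37 CpG dinucleotides and 2 GC boxes, at percentile 97.4 of 32851 RefSeq windows of the same length for G and C content. The Btk window was 49.6% G and C with 3 CpG dinucleotides, at percentile 39.5, and held none of the 3 patterns. It lies within the annotated span of Btk, whose outer end is base 134583570. An annotated start of Btk thus lies further upstream, and the DNA before that start was not examined. The Fgr window, with 64.4% G and C and 9 CpG dinucleotides, held 1 GGAAGT and no GC box. Across all windows the median G and C content was 52.4% with a median of 6 CpG dinucleotides, and 32.7% held GGGCGG, 23.3% GAGGAA and 19.7% GGAAGT. Among the windows not printed, that of Src was 82.8% G and C with 40 CpG dinucleotides, that of Fyn 67.2% with 21, and that of Tec 68.4% with 26. The Src window held 1 GC box and 1 GAGGAA, and the Fyn window 1 GC box. The Tec window held 2 GC boxes and 1 GGAAGT. Among the windows of Src, Yes1, Btk and Tec, no pattern marked both genes of 1 library and neither gene of the other. Lyn had no window and the outer start of Btk was not examined, so these windows allow no wider reading. Of the Lck windows, that at the outer start site was 56.4% G and C with 1 CpG dinucleotide and held 1 GAGGAA and 1 GGAAGT, and the other, which overlaps an exon of Lck, was 58.0% with 3 and held 1 GGGCGG and 1 GGAAGT. Matches describe letters only, and no binding was measured. The Yes1 window also overlaps an exon of Gm10461, an unconfirmed transcript on the opposite strand.

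Of the broadly expressed Src family kinases, Src showed the widest difference with a value above 0 on each side. Src, the cellular form of the Rous sarcoma virus oncogene, had 44.1 TPM in the fibroblast and 0.801 TPM in the macrophage library. It was at the top of the 9 kinases in fibroblasts together with Fyn, and below the 1 TPM taken as detected in macrophages. The ratio was 55.0-fold, a log2 ratio of 4.65 on the TPM plus 1 scale. Src maps to chromosome 2, plus strand, bases 157418444 to 157471862 (GRCm38, ENSMUSG00000027646).

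Yes1, which encodes the close relative YES, had 14.39 TPM in the fibroblast library and a listed value of 0 in the macrophage library. The log2 ratio on the TPM plus 1 scale was 3.94, and no fold is given against a listed 0. A 0 can be a failed estimate. None of 15 genes used in every cell, such as Actb and Tbp, was listed at 0 in either library. Their lowest value was 22.0 TPM, so they cannot show whether the 0 of Yes1 is a failed estimate. Of 8537 genes at 10 TPM or more in fibroblasts 135 (1.58%) were listed at 0 in macrophages. With a pseudocount of 5 in place of 1 the log2 ratio of Yes1 was 1.95, just under the limit. Yes1 maps to chromosome 5, plus strand, bases 32611171 to 32687057 (ENSMUSG00000014932).

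Fyn, whose product serves T cell, neural and adhesion signalling, was the broad member at 5 TPM or more in both libraries. It had 39.9 TPM in the fibroblast and 46.5 TPM in the macrophage library. The log2 ratio was -0.21, far inside the 4-fold limit. In macrophages Fyn made up nearly all of the mRNA of the broad group, 46.5 of a sum of 47.3 TPM, whereas in fibroblasts Src, Fyn and Yes1 added up to 98.4 TPM. Fyn is spliced into forms with different kinase domain exons, which these gene values do not separate. It maps to chromosome 10, plus strand, bases 39368855 to 39565381 (ENSMUSG00000019843).

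Among the Src family kinases of blood cells, Lyn was the member with a high level. Lyn, which both starts and restrains signalling by immune receptors, had 117 TPM in the macrophage and 7.69 TPM in the fibroblast library. The ratio was 15.3-fold toward macrophages, a log2 ratio of -3.77. Lyn was the highest of the 9 kinases in macrophages, 1.65-fold above Btk, and ranked 1303 among all genes there. In fibroblasts it passed 5 TPM, which no other member of the blood-cell group did. Lyn maps to chromosome 4, plus strand, bases 3678115 to 3813122 (ENSMUSG00000042228).

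The remaining blood-cell members were low. Fgr, a kinase of granulocytes, monocytes and macrophages, had 3.08 TPM in the macrophage and 0.0403 TPM in the fibroblast library. Its log2 ratio of -1.97 fell just short of the limit, and its level was below 5 TPM. With median-of-ratios scaling the ratio was -2.05 and with the table rescaled without mitochondrial and the 50 highest genes -2.34, past the 4-fold limit but still at a level under 5 TPM. Lck, the kinase that starts T cell receptor signalling, had 1.85 TPM in the macrophage and 0.282 TPM in the fibroblast library, a log2 ratio of -1.15. Blk, a kinase of B cells, was listed at 0 in both libraries. Fgr and Lck share chromosome 4 with Lyn, at 132974095 to 133001910 (plus strand, ENSMUSG00000028874) and 129548344 to 129573641 (minus strand, ENSMUSG00000000409), and Blk maps to chromosome 14, minus strand, bases 63372836 to 63417037 (ENSMUSG00000014453).

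Markers of lymphocytes, in which Lck and Blk are known best, were mostly low in both libraries. Of 10 T cell markers 3 reached 1 TPM in the macrophage library and none in the fibroblast library, with sums of 32.3 and 0.607 TPM. The 3 were Cd28 at 23.9 TPM, the sum of 2 differing rows, Cd5 at 5.46 and Cd4 at 1.78. The defining genes Cd3g and Zap70 were listed at 0 in both libraries, and Cd3e stood at 0.0391 TPM in macrophages. Of 9 B cell markers 2 reached 1 TPM in the macrophage library, Cd22 at 5.76 and Cd79b at 3.66, while Rag1 was listed at 0 and Pax5 stood at 0.0239; the sums were 10.4 and, in fibroblasts, 1.46 TPM. Of 10 neutrophil markers 9 reached 1 TPM in the macrophage library, with a sum of 502 TPM against 2.25 TPM in fibroblasts. S100a9 and S100a8 led them at 268 and 157 TPM, and Ly6g was listed at 0. Neutrophils also express Fgr and Lyn, and the part of such cells in the values of Fgr and Lyn was not tested. In bulk RNA, fewer cells of a type and less RNA per cell cannot be told apart.

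The Tec family members were both higher in macrophages, by very different margins. Btk, the kinase of B cell receptor and myeloid receptor signalling whose loss causes agammaglobulinemia, had 71.1 TPM in the macrophage and 0.0918 TPM in the fibroblast library. The log2 ratio of -6.04 was the largest in size among the 9 genes, and the ratio of the TPM themselves was 774-fold, against a very low fibroblast value. Tec, the founding member of its family, had 50.9 TPM in the macrophage and 10.4 TPM in the fibroblast library. The ratio was 4.88-fold, a log2 ratio of -2.18, which lies close to the limit and was -1.86 with a pseudocount of 5. Tec was thus present in both libraries, whereas Btk was at a level above 1 TPM in macrophages alone. Btk maps to chromosome X, minus strand, bases 134542336 to 134583570 (ENSMUSG00000031264) and Tec to chromosome 5, minus strand, bases 72755716 to 72868483 (ENSMUSG00000029217).

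Both the total and the make-up of the kinase mRNA differed. The 9 genes came to 117 TPM in the fibroblast and 292 TPM in the macrophage library, 2.49-fold more. In fibroblasts Src held 37.7% of the sum, Fyn 34.1%, Yes1 12.3%, Tec 8.92% and Lyn 6.58%. In macrophages Lyn held 40.3%, Btk 24.4%, Tec 17.4% and Fyn 15.9%, and Src 0.275%. By group, the broad Src kinases went from 84.2% of the sum in fibroblasts to 16.2% in macrophages, the blood-cell Src kinases from 6.85% to 41.9%, and the Tec kinases from 9.0% to 41.8%. The neighbours Src and Fyn in fibroblasts were 1.10-fold apart, and the neighbours Tec and Fyn in macrophages 1.09-fold. Such small steps cannot be ordered without replicates.

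**Figure D2:**
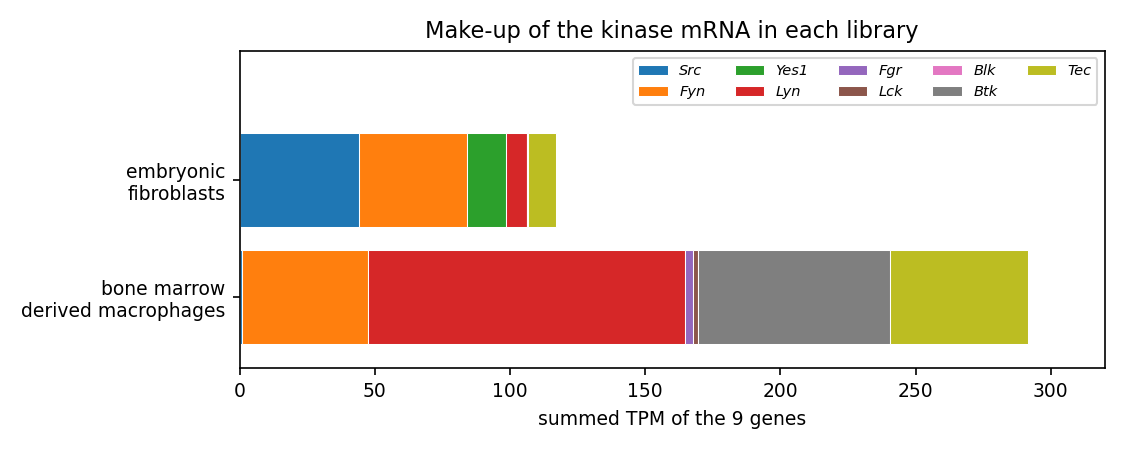
Summed TPM of the 9 kinases in each library, drawn as stacked bars from 0 with 1 colour per gene. The fibroblast bar ends at 117 TPM and is mostly Src and Fyn; the macrophage bar ends at 292 TPM and is mostly Lyn, Btk, Tec and Fyn.

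Some relatives outside the 9 genes were low. Frk, a Src-like kinase known best from epithelia, was higher in fibroblasts, with 5.10 TPM against 0.445, just past the limits. Bmx and Txk, of the Tec family, had 0.887 and 0.483 TPM in macrophages and were listed at 0 in fibroblasts.

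The low values were set beside the level at which marker genes of the other cell type appeared in each library. Marker genes matched the labels, since 10 of 10 macrophage markers and 10 of 10 fibroblast markers were higher in the library of that name. The macrophage markers include Ptprc, Itgam and Adgre1, whose products the fibroblasts had been sorted against. Their low fibroblast values are not independent of that sorting, and they enter the first median below. For the macrophage markers the fibroblast value was a median of 0.204% of the macrophage value, from 0.0494% to 20.8%. For the fibroblast markers the macrophage value was a median of 0.162% of the fibroblast value, from 0% to 0.401%. The fibroblast value of Btk was 0.129% of its macrophage value, under the first median. That of Fgr was 1.31%, that of Lyn 6.55%, that of Lck 15.2% and that of Tec 20.5%. All these lay above the first median and above every macrophage marker except Mertk. Mertk alone set the 20.8%, with 4.59 TPM in fibroblasts and 22.1 TPM in macrophages. The macrophage value of Src was 1.82% of its fibroblast value, above the highest of the fibroblast markers. With these median shares subtracted from each library, 2 and 3 of the 9 kinases were again higher in fibroblasts and macrophages. Such a subtraction widens the differences of these kinases, so it could not have removed their calls.

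Kinase domains of these families resemble each other, so the annotated transcripts were searched for stretches that reads could not assign. No 31-base stretch of any of the 9 genes occurred in another of them, on either strand. For Lyn, 22.8% of its 4065 distinct 31-base stretches also occurred in other genes. Most of these lay in Gm11787, a pseudogene on the same chromosome that holds 695 of them and was listed at 0 in both libraries, and in Gm26857, an opposite-strand transcript at the start of Lyn with 219. For Yes1 the share was 9.74% of 7534, led by 605 in Gm10461 on the opposite strand. The other 7 kinases had none. No value is listed under the names Gm26857 or Gm10461 in either library. Neither the transcript set nor the use of strand in the authors' quantification is given in the sources used here. Whether reads over the starts of Lyn and Yes1 were shared with those transcripts is thus not known.

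**Figure D3:**
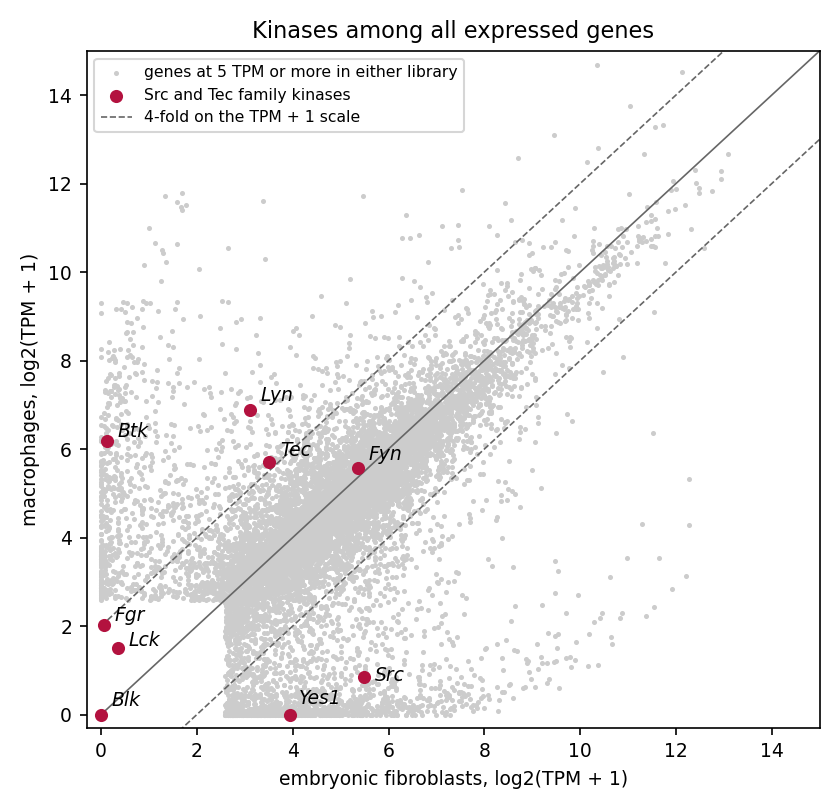
Level in macrophages against level in fibroblasts, as log2(TPM + 1), for the genes at 5 TPM or more in either library (grey) and the 9 kinases (red); the solid line marks equal values and the dashed lines the 4-fold limits. Btk and Lyn lie above the upper limit with Tec just past it, Src and Yes1 lie below the lower limit, and Fyn lies near the line of equal values.

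By the rule of nearness on log2(TPM + 1) in the 2 libraries, the genes closest to Src were Bcat1 at 45.1 TPM in fibroblasts and 0.903 in macrophages, Mmp11 at 43.6 and 0.657, and Cxxc5 at 46.6 and 0.618. Those closest to Lyn were Ifi211 at 107 TPM in macrophages and 8.57 in fibroblasts, Ifit3 at 98.0 and 7.65, and the cytoplasmic tyrosine kinase gene Fes at 141 and 7.28. With only 2 libraries many genes share such a pair of levels.

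Genes that control Src kinases were higher in macrophages or in neither library. Of 21 listed regulators 19 reached 5 TPM, of which 8 were higher in macrophages, none was higher in fibroblasts and 11 were higher in neither. All 8 reached 5 TPM in macrophages alone, so they could not have been called higher in fibroblasts. Over all genes at 5 TPM or more, 8.77% were higher in macrophages and 14.3% in fibroblasts. The median log2 ratio of the 20 detected regulators was -1.38, beside 0.28 over all detected genes. The kinase gene Csk, whose product closes Src kinases through their tail, was higher in neither, with 85.7 TPM in the fibroblast and 197 TPM in the macrophage library. Its membrane anchor Pag1 stood at 9.87 and 10.8 TPM. The phosphatase gene Ptprc, encoding CD45, which opens Src kinases in leukocytes, stood at 142 TPM in macrophages and 0.352 in fibroblasts, which had been sorted against that protein. Ptpra, the phosphatase that does so in many tissues, stood at 164 and 68.4 TPM and was higher in neither. Also higher in macrophages were Ptpn6, encoding the inhibitory phosphatase SHP-1, at 208 TPM against 2.02, Ptpn18 at 159 against 0.0562 and the adaptor gene Dok2 at 92.1 against 0.967.

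Immune receptors and adaptors upstream of these kinases were mostly higher in macrophages. Of 19 listed ITAM and ITIM genes, 13 reached 5 TPM and all 13 were higher in macrophages, beside 8.77% of all genes. All but Sirpa, at 23.2 TPM in fibroblasts, reached 5 TPM in macrophages alone. They could therefore not have been called higher in fibroblasts, and the count is largely set by that minimum. The median log2 ratio of the 16 detected genes was -6.53, beside 0.28 over all detected genes. Several of these lists hold macrophage or lymphocyte markers and are not independent of the marker lists. Fcer1g and Tyrobp, which carry the ITAM that Src kinases phosphorylate, stood at 3346 and 3085 TPM against 1.54 and 2.00. The inhibitory receptor gene Lilrb4a, the sum of 2 rows, stood at 2829 TPM against 2.20, and the lipid receptor gene Trem2 at 1452 against 1.41.

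Most of their downstream partners were higher in macrophages. Of 24 listed genes 21 reached 5 TPM, 17 were higher in macrophages, 1 was higher in fibroblasts and 3 were higher in neither. The median log2 ratio of the 22 detected genes was -4.88, beside 0.28 over all detected genes. The adaptor gene Lat2 stood at 573 TPM against 1.92, the actin regulator Hcls1 at 433 against 0.840, and the adaptors Pik3ap1 and Fyb at 248 and 211 against 0.220 and 0.288. Plcg1, encoding the broadly expressed phospholipase C gamma, was the 1 gene higher in fibroblasts, at 36.6 TPM against 7.21. Its log2 ratio of 2.20 lay close to the limit, and the call was lost with a pseudocount of 5 and with an 8-fold threshold. Plcg2, its blood-cell counterpart and the substrate of BTK, named after its values were seen, had 87.8 TPM in the macrophage and 2.65 TPM in the fibroblast library.

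Substrates and partners of Src kinases at adhesions lay more on the fibroblast side. Of 23 listed genes 22 reached 5 TPM, 10 were higher in fibroblasts, 1 was higher in macrophages and 11 were higher in neither. Of those 10, all but Tns1, Sh3pxd2a, Arhgap35 and Vcl reached 5 TPM in fibroblasts alone. They could therefore not have been called higher in macrophages. The shares over all genes were 14.3% higher in fibroblasts and 8.77% in macrophages. The median log2 ratio of all 23 was 1.78, beside 0.28 over all detected genes. Cav1, encoding caveolin, a protein first known as a phosphorylated target of v-Src, stood at 1373 TPM against 3.52. The actin regulator cortactin (Cttn), another classical Src substrate, stood at 329 TPM against 1.43, vinculin (Vcl) at 384 against 9.01 and the cadherin gene Cdh11 at 129 against 0.205. The focal adhesion kinases were split: Ptk2, encoding FAK, was higher in fibroblasts, with 35.0 TPM against 4.14, and its relative Ptk2b, encoding PYK2, was higher in macrophages at 164 TPM against 29.8. The integrin gene Itgb1 and the adaptor gene Pxn, named after their values were seen, were higher in neither, with 896 and 34.7 TPM in fibroblasts and 362 and 66.2 in macrophages.

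**Figure D4:**
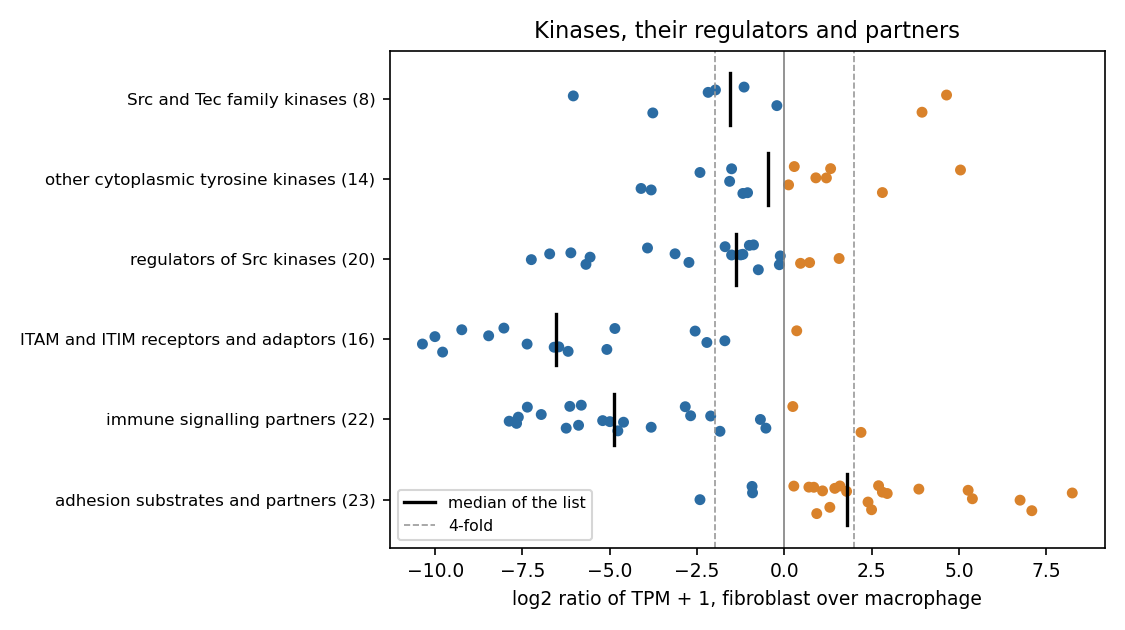
Log2 ratio of TPM + 1, fibroblast over macrophage, for the genes at 1 TPM or more in either library in each list, with the number of genes in brackets, 1 point per gene, the list median as a black bar and the 4-fold limits dashed. The receptor and immune partner lists lie mostly left of 0, with medians of -6.53 and -4.88, the adhesion list lies mostly right of 0, with a median of 1.78, and the 8 kinases spread to both sides.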

How the data were processed

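Poly(A) RNA of 2 cultures was sequenced with a stranded Illumina kit in paired reads of 76 bases, per the labels' protocols. The submitters' processing notes name kallisto 0.43.1 and GRCm38, and neither a transcript set nor the joining to genes is stated in them. The deposited table is read as TPM from their range and from sums of 999545 (fibroblasts) and 999609 (macrophages). Of 34456 rows, those of 1 symbol were added, giving 34295 genes. Gene coordinates are from GENCODE M21 (GRCm38), and sequence windows from RefSeq (GRCm38.p6). Python 3.11.15 and pandas 2.3.3 gave log2 ratios with a pseudocount of 1, the 4-fold rule with a 5 TPM minimum, and counts per list; the rule was tested on simulated data. No test was possible with 1 library per group. The members and lists were chosen with earlier results of these data known, and some listed genes are not reported here. Genes named are the 9 kinases, up to 4 genes per direction and list with the highest value, the leading markers, and the 3 genes nearest to the highest kinase of each library; others, such as Csk, Pag1, Ptpra and some markers, were picked after their values were seen. Alternatives changed pseudocount, minimum, threshold, scaling, row handling and gene set, and subtracted the other cell type's share.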

Additional observations from a re-analysis of the deposited data

How the results depend on the processing

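Over 12 alternatives 3 of 108 recomputed calls of the kinases changed. A change of pseudocount, minimum, threshold, row handling or gene set cannot turn the direction of these kinases. The 2 rescalings moved Fyn, the kinase nearest to equal, from a log2 ratio of -0.21 further toward macrophages, to -0.39 and -0.35. The subtraction of the other cell type's share was too small to turn a kinase and gave -0.22 for Fyn. None of the 8 kinases with a value above 0 turned, but these settings were no real test of direction. With a pseudocount of 5, Yes1 and Tec fell below the 4-fold limit, which left 1 kinase higher in fibroblasts and 2 in macrophages, and 896 and 652 genes over the whole table. An 8-fold threshold removed Tec and left 635 genes higher in macrophages; a 2-fold threshold gave 2637 and 1698 genes toward fibroblasts and macrophages. Fgr and Lck stayed uncalled under every setting, including minima of 1 TPM and none, although with a pseudocount of 0.1 their log2 ratios were -4.50 and -2.35 at levels under 5 TPM. Median-of-ratios scaling, which removed a median shift of 0.18 toward fibroblasts, gave -2.35 for Tec. Of 144 recomputed list counts 12 moved by more than 1.5 times; Frk lost its call with that scaling, with a pseudocount of 5, with a minimum of 10 TPM and with the 8-fold threshold. TPM keep no depth, so no detection limit can be given for the values listed at 0. No paired analysis was possible because each cell type has 1 library.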

Other observations

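Of 16 listed genes outside the Src and Tec families, 13 reached 5 TPM, 2 of them higher in fibroblasts, 3 higher in macrophages and 8 in neither, beside the 14.3% and 8.77% of all genes; so small a number cannot be told from those shares. With a 2-fold threshold the counts were 4 and 6. The median log2 ratio of the 14 detected genes was -0.47. Tnk2, encoding the ACK kinase that acts below CDC42, had 129 TPM in the fibroblast and 2.94 TPM in the macrophage library and was the highest of the fibroblast side with Ptk2 after it. Toward macrophages, beside Ptk2b, stood Fes at 141 TPM against 7.28 and Syk, the kinase that docks on phosphorylated ITAMs, at 95.9 against 5.89. The T cell counterpart of Syk, Zap70, was listed at 0 in both libraries. The ABL and JAK kinases, named after their values were seen, were higher in neither library: Abl1 had 57.2 TPM in the fibroblast and 30.1 TPM in the macrophage library, Jak1 at 175 and 75.3, and Jak2 at 13.4 and 12.2.

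Single genes stood out in the marker lists drawn up for other lineages. In the fibroblast library the basophil protease gene Mcpt8 stood at 30.8 TPM and the platelet chemokine gene Ppbp at 24.9 TPM, both listed at 0 in macrophages, while Cpa3, Fcer1a and Gp9 were listed at 0 in both. Itga2b, of the megakaryocyte and platelet list, had 4.69 TPM in fibroblasts against 0.229, and 3 of the 7 genes of that list reached 1 TPM there. Tubb3 had 20.8 TPM in fibroblasts against 0.163, the 1 gene of 6 in the neural list at 1 TPM or more there. In the macrophage library Pf4, from the megakaryocyte and platelet list, stood at 633 TPM against 1.02. It was the 1 gene of the 7 in that list at 1 TPM or more there, so the list as a whole was not high.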
